A study of Homo sapiens with 2 samples.

Results

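Plasma protein genes of the kind mainly used by the liver, together with CPS1, the mitochondrial enzyme that feeds ammonia into the urea cycle, were followed in A549 cells with and without TGF-β. The group was a list of 39 gene symbols chosen by name, with earlier results of these data known. Its members were all probe sets annotated to 1 of these symbols. Of the 39 genes, 37 had a probe set of their own, out of 19775 genes with such a probe set on the array. VTN, which encodes the adhesion protein vitronectin, and SAA1, which encodes serum amyloid A, were annotated only together with other genes and have no values here. CPS1 was the only member that acts as a metabolic enzyme inside the cell, so the group consisted mainly of secreted proteins.

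A549 is an established line of human lung carcinoma cells. RNA came from A549 cells exposed for 12 h to TGF-β at 1 ng/ml and from control A549 cells without the cytokine, and was hybridized to Affymetrix expression arrays. There was 1 TGF-β array and 1 control array, so no difference below has a replicate check, and no p-value or interval can be given. Values are signals, intensities on a linear scale computed by MAS5, and a fold change compares the TGF-β signal with the control signal of the same probe set.

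Hepatocytes make most of the proteins of blood plasma, among them fibrinogen and other clotting factors, complement, protease inhibitors, carriers of metals and lipids, and albumin. Their genes are driven in liver by factors such as HNF4, FOXA and C/EBP, and interleukin 6 acting through STAT3 raises the positive acute-phase proteins in inflammation while negative ones decline. Epithelial cells outside the liver, lung epithelium included, also use some of these genes.

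The promoters of the fibrinogen genes are shown because these genes lie side by side and had lower signals with TGF-β. On chromosome 4, FGB, FGA and FGG had no other protein-coding gene between them. The sequences are from RefSeq (GRCh38.p14) and run 5′ to 3′ along each gene's own strand. The lines hold the 250 bases before the start, namely chr4:154562730-154562979 on the plus strand for FGB, chr4:154590743-154590992 on the minus strand for FGA and chr4:154612657-154612906 on the minus strand for FGG. Capitals mark matches to the C/EBP or type II interleukin 6 motifs spelled out after the sequences.
FGB: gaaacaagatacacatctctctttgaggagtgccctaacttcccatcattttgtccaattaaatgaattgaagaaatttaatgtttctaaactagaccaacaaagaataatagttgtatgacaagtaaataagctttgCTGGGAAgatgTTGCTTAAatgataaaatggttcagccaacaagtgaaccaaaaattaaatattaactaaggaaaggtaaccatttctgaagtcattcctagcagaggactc
FGA: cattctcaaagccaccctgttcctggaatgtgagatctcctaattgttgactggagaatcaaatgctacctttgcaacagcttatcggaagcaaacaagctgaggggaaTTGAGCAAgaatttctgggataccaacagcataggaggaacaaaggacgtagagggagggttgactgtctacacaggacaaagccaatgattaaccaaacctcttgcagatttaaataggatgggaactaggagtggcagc
FGG: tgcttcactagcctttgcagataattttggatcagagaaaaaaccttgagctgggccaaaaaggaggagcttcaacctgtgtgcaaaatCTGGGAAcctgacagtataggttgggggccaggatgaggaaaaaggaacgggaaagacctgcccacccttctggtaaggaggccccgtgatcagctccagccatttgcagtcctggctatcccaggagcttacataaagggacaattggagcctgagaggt

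Of the members, 29 had a promoter in the RefSeq table, and the 250 bases before each start were searched on both strands. The C/EBP motif TTGCNNAA was found in 11 members, or 37.9% against 11% of 27305 genes, and FGA, FGB, AFP and ALB were among them. The type II interleukin 6 motif CTGGGAA was found in 8, or 27.6% against 11.1%, with FGB, FGG and CPS1 among them. These are matches of letters, and no binding was measured. In FGA the C/EBP match began 141 bases before the start, on the opposite strand, and in FGB the 2 marked motifs lay within a few bases of each other. The HNF4 motif CAAAGTCCA was found in 1 member, AHSG (3.45% against 0.403%), and the FOXA motif TGTTTAC in KNG1 (3.45% against 3.66%). The AP-1 motif TGANTCA, which reads the same on both strands, was found in RBP4 and LCN2 (6.9% against 8.06%). The Smad motif GTCTAGAC, also the same on both strands, was found in 0 of the 29 windows, against 0.231% of all genes. The marked matches did not overlap one another.

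Both arrays held 54675 probe sets and had been scaled to the same trimmed mean signal of 500. The background level of an array was taken as its highest signal among 27 control probe sets for Bacillus subtilis transcripts, 56.6 on the TGF-β array and 45.8 on the control array. By this level 47.5% of probe sets were above background on the TGF-β array and 52.1% on the control array. Of 6 genes listed as a check of the TGF-β response, 5 had a probe set, and all 5 were at least 2-fold higher, with COL1A1, a collagen chain, at 10680.1 with TGF-β and 821 in the control. These genes too were listed with earlier results of these data known, so their rise is no independent check. All 6 epithelial markers were above background on both arrays, 3 lower and 3 higher. CDH1, the adherens junction cadherin, fell 2.31-fold, with 846 with TGF-β and 1952 in the control, while KRT7, a simple keratin, was 1.55-fold higher, with 27547 with TGF-β and 17728 in the control. Of the markers of other cells, 0 of 6 for fibroblasts, 3 of 4 for immune cells and 1 of 6 for endothelium with a probe set were above background on both arrays, and the immune marker CD14 fell 3.02-fold, with 63.0 with TGF-β and 190.5 in the control. CD3E was 1.53-fold higher, with 74.8 with TGF-β and 48.8 in the control, and ITGAM 1.05-fold lower. Their part in the results below was not tested.

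The name liver-type describes where these genes are mainly used and not the identity of these cells. ALB, the gene of albumin and the defining hepatocyte marker, was at background on both arrays with all 4 of its probe sets. Of 9 hepatocyte markers with a probe set, 2 were above background on both arrays, APOA1 and CYP3A4. Of 10 alveolar and lung epithelial markers with a probe set, 4 were. The surfactant protein gene SFTPB read 153 with TGF-β and 184 in the control, which was lower, and SFTPC read 84.7 with TGF-β and 58.9 in the control, 1.44-fold higher.

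Signals of this group were mostly lower with TGF-β, by modest amounts. Genes entered these counts through their brightest probe set, provided that its mean signal was not under 48.7, the median of all probe sets. Among the 26 members kept, 1 was at least 2-fold higher with TGF-β, where 3.94% of all 12375 genes kept were, and 3 were at least 2-fold lower, where 2.96% of all genes were. The member that was higher was SERPINA1 and those lower were CPS1, TTR and HPX, and of these 4 only CPS1 had both signals above background. In RNA from whole cultures, fewer cells that use a gene and less of its RNA per cell cannot be told apart.

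Over the 22 members represented by a probe set above background on both arrays, 16 were lower and 6 higher, where 53.6% of 11513 genes measured in this way were lower by any amount. At least 1.25-fold lower were 15 of the 22, where 18.0% of all genes were, a size chosen after the data had been seen. At least 2-fold lower was 1 of the 22, where 1.35% of all genes were, and 0 were at least 2-fold higher, where 2.94% of all genes were. The median log2 fold change was -0.38 over the 22 members, which ranged between -1.22 and 0.67, and -0.03 over all 11513 genes. Most members thus lay in 1 direction, and 1 reached 2-fold. Because the list was chosen with earlier results of these data known, the shares of all genes here and below describe it and are no independent check. Changes were also set against the spread of log2 fold changes among the 500 probe sets nearest in signal. Of the 22 members, 14 lay over 1 spread from the local median, 13 lower and SERPINA3 higher. The other 8, F5, C5 and AFP with lower signals and F2, TF, APOA1, APOE and ITIH2 with higher ones, lay within 1 spread. The share of all genes lying over 1 spread was not counted, so the 14 cannot be read as an excess.

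The higher-signal members all lay on the same side. At a mean signal of at least the 75 percentile over probe sets (349) there were 14 members, namely FGA, FGB, FGG, FGL1, F5, C3, CFB, CFI, RBP4, CP, APOC1, APOH, LCN2 and CPS1. All 14 were lower with TGF-β, where 54.4% of the 7815 genes this bright were lower, and all 14 were at least 1.25-fold lower, where 14.2% were. Their median log2 fold change was -0.40, against -0.03 over the 7815 genes. Each of the 6 members that were higher had a mean signal under this level.

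**Figure D1:**
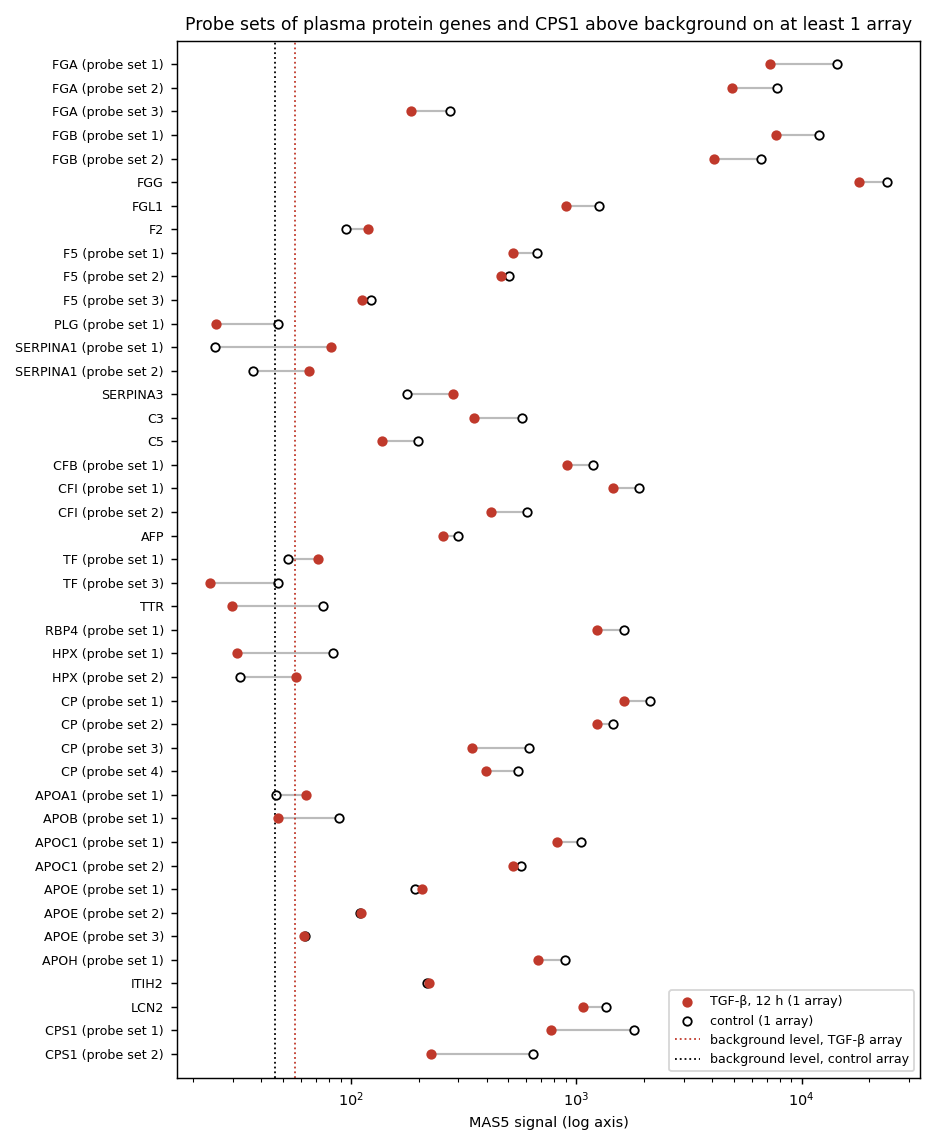
Signals on the TGF-β array (filled) and the control array (open) for the 43 member probe sets above background on at least 1 array, on a log axis, with the background level of each array dotted. The filled point lies left of the open one for 28 of the 35 probe sets above background on both arrays. The share over all probe sets was not counted.

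The fibrinogen genes encode the chains that thrombin cleaves to form the fibrin clot. FGA, the alpha chain, had a signal of 7247 with TGF-β and 14422 in the control, 1.99-fold lower and just short of 2-fold. Its other probe sets read 4930 with TGF-β against 7790 in the control and 185 with TGF-β against 274 in the control, 1.58-fold and 1.49-fold lower. All 3 FGA probe sets were thus lower, by unequal amounts. FGB, the beta chain, read 7701 with TGF-β and 11927 in the control, 1.55-fold lower. The other FGB probe set read 4107 with TGF-β and 6636 in the control, 1.62-fold lower. FGG, the gamma chain, is measured by a single probe set, with 17891 with TGF-β and 23834 in the control, 1.33-fold lower. The genes for all chains of the hexamer therefore had lower signals, and the log2 fold change was -0.99 for FGA, -0.63 for FGB and -0.41 for FGG. The spread of log2 fold changes among probe sets of like signal was 0.17 for FGA, 0.17 for FGB and 0.12 for FGG, which describes probe sets of these arrays and no variation between cultures. FGL1, a secreted relative of fibrinogen made in liver, read 897 with TGF-β and 1261 in the control, 1.41-fold lower.

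The 2 clotting factors measured on both arrays had opposite directions, but both lay within 1 spread of probe sets of like signal. F5, the cofactor of the enzyme that activates prothrombin, read 526 with TGF-β and 670 in the control, 1.27-fold lower. Its other probe sets read 462 with TGF-β against 501 in the control and 112 with TGF-β against 123 in the control. F2, prothrombin itself, read 119 with TGF-β and 95.2 in the control, 1.25-fold higher. PLG, the precursor of the clot-dissolving enzyme plasmin, had 3 probe sets, of which the brightest was above background only in the control, at 25.1 with TGF-β and 47.5 in the control, and no fold is given. F10, which encodes factor X, and KNG1, the precursor of bradykinin, were at background on both arrays with 1 and 3 probe sets.

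Serpins, inhibitors of serine proteases, included the member with the highest log2 fold change among the 22. SERPINA3, the antichymotrypsin of the acute phase, read 283 with TGF-β and 178 in the control, 1.59-fold higher, a log2 fold change of 0.67. The spread among probe sets of like signal was 0.39. SERPINA1, the antitrypsin that protects lung elastin from neutrophil elastase, read 81.6 with TGF-β and 25.0 in the control, where it was at background. Set against the background level its fold was at least 1.78, higher with TGF-β, and a further probe set with 65.2 with TGF-β and 36.8 in the control gave at least 1.42-fold. The remaining 2 SERPINA1 probe sets were at background on both arrays. SERPINA5, SERPIND1 and SERPING1, which encode inhibitors of protein C, thrombin and complement C1, had 1 probe set each, at background on both arrays. SERPINA5 and SERPINA3 are neighbours with no protein-coding gene between them, and of that pair only SERPINA3 was above background.

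The 4 complement genes among the members were all lower. C3, the central component of the cascade, read 354 with TGF-β and 575 in the control, 1.63-fold lower. C5, the precursor of the anaphylatoxin C5a, read 137 with TGF-β and 198 in the control, 1.44-fold lower. CFB, the protease of the alternative pathway, read 912 with TGF-β and 1191 in the control, 1.31-fold lower. CFI, the protease that inactivates C3b and so restrains the same pathway, was lower as well. It read 1462 with TGF-β and 1902 in the control, 1.30-fold lower, and 417 with TGF-β and 604 in the control with its other probe set, 1.45-fold lower. Activating and restraining components thus had lower signals alike.

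**Figure D2:**
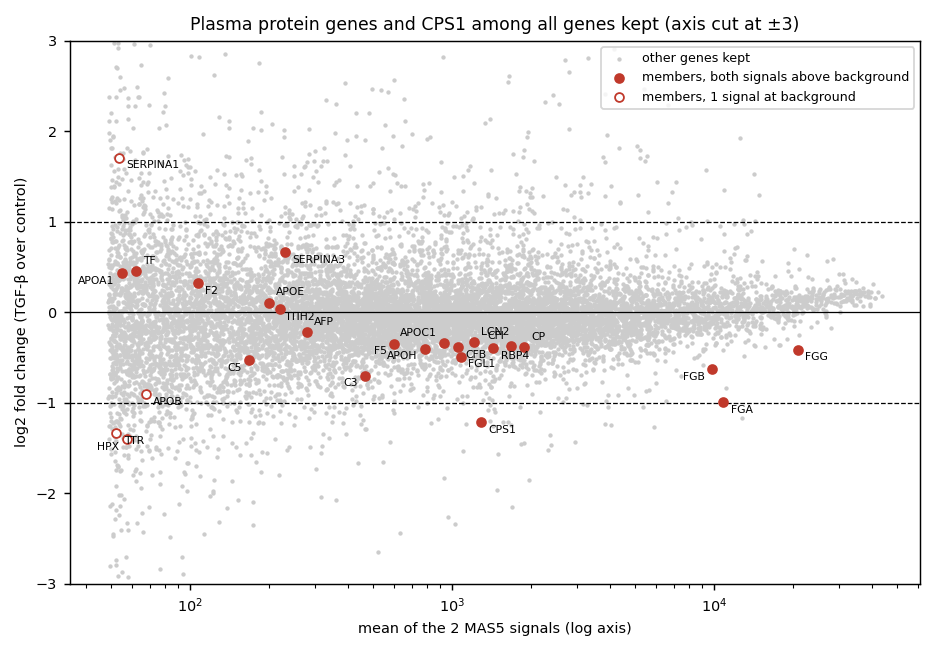
Log2 fold change (TGF-β over control) against the mean of the signals on a log axis for 12375 genes kept, with the 26 members marked and dashed lines at 2-fold. Members with high mean signals, the fibrinogen chains among them, lie under 0, and members over 0 lie at low mean signals.

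Carriers of metals, vitamins and haem were lower where bright and mixed where dim. CP, the copper-carrying ferroxidase ceruloplasmin, was read by 4 probe sets. They gave 1622 with TGF-β against 2124 in the control, 1233 against 1462, 344 against 617 and 397 against 554, in the same order. All 4 CP probe sets were lower, by 1.31-fold, 1.19-fold, 1.79-fold and 1.40-fold. RBP4, the plasma carrier of retinol, read 1238 with TGF-β and 1635 in the control, 1.32-fold lower. AFP, the fetal counterpart of albumin, read 257 with TGF-β and 299 in the control, 1.17-fold lower. TF, the iron carrier transferrin, read 71.8 with TGF-β and 52.5 in the control, 1.37-fold higher, with both signals close to background. Another TF probe set read 23.8 with TGF-β and 47.4 in the control, only the control signal being above background, and no fold is given. TTR, the thyroxine carrier transthyretin that binds RBP4 in plasma, was above background only in the control, with 29.6 with TGF-β and 74.96 in the control, at least 1.32-fold lower. HPX, the haem scavenger hemopexin, gave opposite directions with its probe sets. The brighter read 31.3 with TGF-β and 83.0 in the control, at least 1.47-fold lower, and the other 57.1 with TGF-β and 32.1 in the control, at least 1.25-fold higher. HP, which encodes the haemoglobin scavenger haptoglobin, was at background on both arrays with the 1 probe set annotated to it alone.

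Among the apolipoproteins the brighter APOC1 and APOH were lower, while the dimmer APOE, APOA1 and APOB did not share 1 direction. APOC1, a small apolipoprotein of several lipoprotein classes, read 822 with TGF-β and 1045 in the control, 1.27-fold lower, and 523 with TGF-β and 570 in the control with its other probe set, 1.09-fold lower. APOE, its neighbour on chromosome 19 and the ligand of lipoprotein receptors, read 206.5 with TGF-β and 192 in the control, 1.08-fold higher. The other APOE probe sets read 111 with TGF-β against 110 in the control and 62.2 with TGF-β against 62.5 in the control. APOE signals thus differed by less than 1.25-fold with all 3 probe sets. APOH, the phospholipid-binding beta-2-glycoprotein I, read 678 with TGF-β and 896 in the control, 1.32-fold lower. APOA1, the main protein of high-density lipoprotein, read 62.9 with TGF-β and 46.7 in the control, 1.35-fold higher but barely above background. Its other 2 probe sets were at background on both arrays. APOB, the structural protein of low-density lipoprotein, was above background only in the control, with 47.3 with TGF-β and 88.6 in the control, at least 1.56-fold lower.

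ITIH2, a heavy chain of the inter-alpha-inhibitors that bind hyaluronan, read 222 with TGF-β and 217 in the control, 1.02-fold higher. ITIH4, of the same family, and AHSG, which encodes fetuin-A, an inhibitor of calcification, were at background on both arrays with 4 and 2 probe sets. LCN2, a lipocalin that withholds iron from bacteria, read 1072 with TGF-β and 1353 in the control, 1.26-fold lower. CRP, which encodes the acute-phase protein C-reactive protein, was at background on both arrays with its 2 probe sets.

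CPS1 was the member with the largest change among those measured on both arrays. It read 776 with TGF-β and 1802 in the control and so fell 2.32-fold, and its other probe set read 228 with TGF-β and 642 in the control, a 2.82-fold fall. The log2 fold changes were -1.22 and -1.50, and the spread among probe sets of like signal was 0.29 and 0.32. Ordered by fall, CPS1 was number 72 of the 11513 genes above background on both arrays. It was also the only member to pass 2-fold with signals above background, and both of its probe sets passed.

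Counted by probe set and not by gene, 35 of the 75 member probe sets were above background on both arrays, 28 lower and 7 higher. Genes with several probe sets enter this count repeatedly. The share of all probe sets that were lower was not counted, so the 28 cannot be read as an excess. A further 8 were above background on 1 array, and 32 on neither. Of the 8 members with several probe sets above background on both arrays, 7 were lower with every such probe set, and APOE was the exception. Probe sets of a gene share its RNA and the same 2 arrays, so their agreement says nothing about another culture.

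Sorting the members by their textbook response to inflammation gave unequal counts. Of 16 members listed as positive acute-phase proteins, 9 were above background on both arrays, 8 of them lower and only SERPINA3 higher. Not counted among the 9 was SERPINA1, above background only with TGF-β and at least 1.78-fold higher. Also outside the 9 was HPX, whose probe sets gave opposite directions. Of 7 listed as negative acute-phase proteins, 4 were above background on both arrays, RBP4 lower and TF, APOA1 and ITIH2 higher, where 53.6% of all genes were lower. The negative members that were higher were dim or nearly equal, with TF and APOA1 close to background and ITIH2 at 1.02-fold, and TTR, also negative, was lower with only its control signal above background. The median log2 fold change was -0.41 over the 9 positive and 0.23 over the 4 negative members. At a mean signal of at least the 75 percentile it was -0.45 over 8 positive members and -0.40 for RBP4, the only negative member left, so the opposite signs rested on members of lower signal.

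Lists of genes around this group were described in the same way, over genes above background on both arrays, where the median of all genes was -0.03. Of 74 other plasma protein genes, 17 were measured, 11 lower and 6 higher, with a median log2 fold change of -0.33. By their brightest probe sets, 0 of the 19 kept changed 2-fold. When the most changed probe set stood for a gene, 2 of the 17 were at least 2-fold lower. TFPI read 2355 with TGF-β and 3824 in the control, 1.62-fold lower. Its other probe sets above background on both arrays were 1.71-fold lower, 2.10-fold lower and 1.02-fold higher. C1S, a protease of the classical complement pathway, read 5393 with TGF-β and 6797 in the control. Its partner C1R read 2721 with TGF-β and 3373 in the control, so that C1S was 1.26-fold and C1R 1.24-fold lower. CLU, the chaperone clusterin, read 3598 with TGF-β and 2806 in the control, 1.28-fold higher.

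Among 31 transcription factors that control liver genes, 18 were measured, 13 lower and 5 higher, with a median of -0.38. CEBPD, the C/EBP factor induced in the acute phase, fell 2.10-fold, with 928 with TGF-β and 1949 in the control. DBP, a circadian factor that acts on albumin, was above background only in the control, with 36.0 with TGF-β and 72.5 in the control, at least 1.28-fold lower. These were the 2 of the 19 kept that were at least 2-fold lower, and 0 were at least 2-fold higher. The following factors were named after their values were seen. FOXA2, a pioneer factor of endoderm, read 752 with TGF-β and 1430.4 in the control, 1.90-fold lower, and 166 with TGF-β and 349 in the control with its second measurable probe set, 2.10-fold lower. Its relative FOXA1 read 487 with TGF-β and 433 in the control, 1.12-fold higher, and 129 with TGF-β and 65.1 in the control with its other probe set, 1.98-fold higher. FOXA3 read 98.0 with TGF-β and 180.0 in the control, 1.84-fold lower. CEBPB, another C/EBP factor, read 13808 with TGF-β and 16302 in the control, 1.18-fold lower, and CEBPA read 152 with TGF-β and 195 in the control, 1.28-fold lower. Among the factors that were higher, ONECUT2, a hepatic differentiation factor, read 151 with TGF-β and 85.5 in the control, 1.76-fold higher. Another ONECUT2 probe set was 1.10-fold higher. A further one read 136 with TGF-β and 14.2 in the control, where it was at background, at least 2.98-fold higher. GATA6, an endoderm factor, read 923 with TGF-β and 574 in the control, 1.61-fold higher. A dimmer GATA6 probe set was lower, with 37.3 with TGF-β and 72.7 in the control, only the control signal being above background.

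Genes of acute-phase signalling were divided about evenly. Of 28 listed, 24 were measured, 11 lower and 13 higher, with a median of 0.09, and scaling the arrays by quantiles gave 12 in each direction. When the most changed probe set stood for a gene, and likewise when the median over its probe sets did, 13 were lower and 11 higher, with medians of -0.06 and -0.04. SOCS1, a feedback inhibitor of cytokine receptors, rose 2.03-fold, with 109 with TGF-β and 53.9 in the control, the control signal being close to background and its other 3 probe sets at background on both arrays. No other gene of the list changed 2-fold. STAT3, the factor that carries the interleukin 6 signal, read 2688 with TGF-β and 2781 in the control, 1.03-fold lower, and 583 with TGF-β and 921 in the control with another probe set, 1.58-fold lower. SOCS3, its feedback inhibitor, read 917 with TGF-β and 944 in the control, also 1.03-fold lower. IL6ST, the receptor chain gp130 shared by the interleukin 6 family, read 15379 with TGF-β and 12555 in the control, 1.22-fold higher. Larger changes short of 2-fold ran in both directions. LIF read 862 with TGF-β and 451 in the control, 1.91-fold higher, and NFKB1 was 1.46-fold higher. LIFR read 148 with TGF-β and 292 in the control, 1.97-fold lower. Its other probe sets above background on both arrays were 1.08-fold higher and 1.23-fold lower. STAT3, SOCS3, IL6ST, LIF, NFKB1 and LIFR were named after their values were seen.

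Around CPS1, 17 of 28 genes of the urea cycle and amino acid breakdown were measured, 14 lower and 3 higher, with a median of -0.26, and 0 of the 17 kept changed 2-fold. When the arrays were scaled to equal medians, 13 were lower and 4 higher. ASS1, which joins citrulline and aspartate in the urea cycle, read 12649 with TGF-β and 14587 in the control, 1.15-fold lower. OAT, an ornithine aminotransferase, read 8254 with TGF-β and 8339 in the control, 1.01-fold lower. CTH, which makes cysteine from cystathionine, was named after its values were seen and read 375 with TGF-β and 707 in the control, 1.89-fold lower. NAGS, which makes the activator that CPS1 needs, also named after its values were seen, read 126 with TGF-β and 131 in the control, 1.04-fold lower. The 3 higher genes were ARG2, GLDC and ASL, likewise named after their values were seen. ARG2 read 164 with TGF-β and 103 in the control, 1.60-fold higher, and its other probe set was 1.53-fold higher. GLDC was 1.31-fold and ASL, of the urea cycle, 1.14-fold higher.

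Of 43 other liver metabolic enzymes, 11 were measured, 6 lower and 5 higher, with a median of -0.08. CYP3A4, a drug-metabolizing cytochrome, was 3.05-fold higher by its brightest probe set, with 147 with TGF-β and 48.3 in the control, but the name of that probe set marks a target shared with other transcripts. A further CYP3A4 probe set ran the other way, with 20.1 with TGF-β and 71.1 in the control, at least 1.26-fold lower. At least 2-fold lower by the signals as deposited were 4 enzymes, all with the TGF-β signal at background, and ADH4, KHK and CYP27A1 had the largest falls. KHK, the enzyme that phosphorylates fructose, read 22.2 with TGF-β and 165 in the control, at least 2.92-fold lower, while the bound was under 2-fold for the other 3. Of 17 genes for receptors, secretion and modification of plasma proteins, 10 were measured, 8 lower and 2 higher, with a median of -0.12, and 0 of the 11 kept changed 2-fold. With the quantile, loess and equal-median scalings 7 were lower and 3 higher. TFRC, the transferrin receptor, read 16741 with TGF-β and 17702 in the control, 1.06-fold lower.

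**Figure D3:**
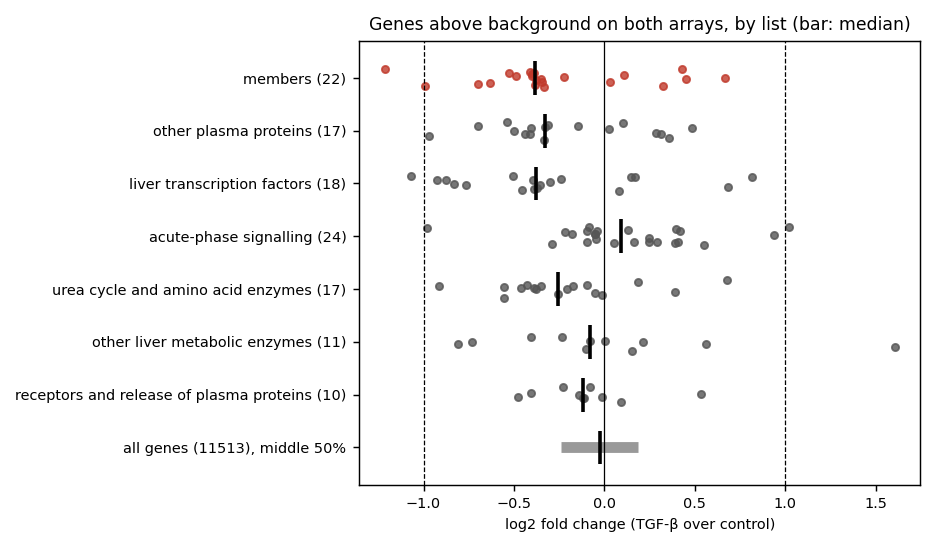
Log2 fold change (TGF-β over control) of genes above background on both arrays, for the 22 members and 6 related lists, each point a gene and each black bar a median, with the middle 50% of all 11513 genes as a grey band between -0.24 and 0.19. The medians of the members (-0.38), transcription factors (-0.38), other plasma proteins (-0.33) and urea cycle and amino acid enzymes (-0.26) lie left of that band. Those of acute-phase signalling (0.09), other liver metabolic enzymes (-0.08) and receptors and release of plasma proteins (-0.12) lie within it.

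The members' directions were recomputed under 10 other settings of filter, scaling and choice of probe set. In these, the 16 lower members stayed lower and the 6 higher members stayed higher wherever a setting kept them. CPS1 stayed at least 2-fold lower under all, with log2 fold changes between -1.50 and -1.16. FGA passed 2-fold under quantile and loess scaling, with -1.04 as its lowest log2 fold change, and came to -0.57 when its 2 brighter probe sets, whose names mark shared targets, were left out.

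**Figure D4:**
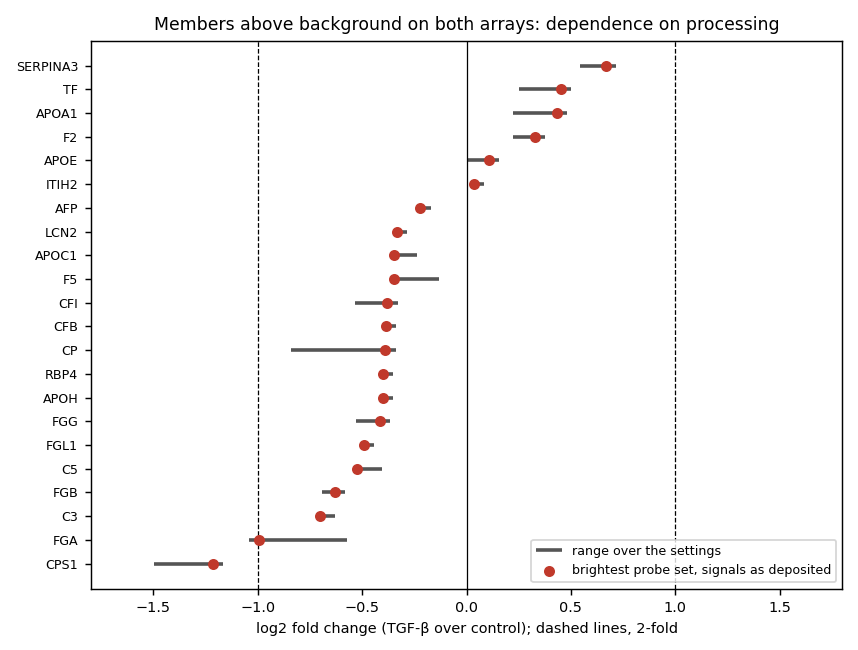
Log2 fold change (TGF-β over control) of the 22 members above background on both arrays, with the value from signals as deposited as a point and the range over the settings tried as a bar, dashed lines at 2-fold. CPS1 lies past 2-fold under every setting and FGA at the line, while no bar crosses 0.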

How the data were processed

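RNA from A549 cells given TGF-β at 1 ng/ml for 12 h and from control A549 cells was measured on 1 Affymetrix array each. The authors deposited linear intensities, each summarizing a probe set. The submitters' processing notes credit MAS5. Its version and settings are not given in the sources. MAS5 scales each array to a common trimmed mean, so a fold change is relative to the rest of the array, and it gives dim probe sets unstable ratios.

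From these intensities, fold changes were computed in Python 3.11.15 using statsmodels 0.14.6 (loess), scipy 1.17.1, pandas 2.3.3 and numpy 2.4.6. Figures used matplotlib 3.10.9. The platform annotation gave 1 symbol to 41091 of the 54613 non-control probe sets and several to 1801, and it did not list 11721, which stay unnamed. Gene identifiers linked old symbols to RefSeq (GRCh38.p14). A signal at background was replaced by the background level of its array and the fold given as a lower bound, or left out when the bound was under 1. The spread among probe sets of like signal is 1.4826 times the median absolute deviation of log2 fold changes over the 500 probe sets nearest in mean log2 signal. The calculation was tested on simulated data. A further promoter motif is not reported here.

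The members and lists were chosen with earlier results of these data known. Every member was accounted for. From every other list, the largest changes of at least 2-fold, no more than 3 in each direction, were named, or the brightest genes where there were none, and only examples of these are printed. Genes named outside this rule are marked as such or stand beside a named gene of the same list for contrast, and were chosen after their values were seen. Alternatives were no filter, a stricter filter, a background floor, an offset of 50, equal medians, quantile and loess (span 0.3) scaling, other choices of probe set, and leaving out probe sets that share targets. The counts over genes above background and over bright genes, and the 1.25-fold size, were added once the values were known. With 1 array per group the number of arrays limits the precision, and no test was run.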

Additional observations from a re-analysis of the deposited data

How the results depend on the processing

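With 1 array per group no replicate could be left out. No paired analysis was possible because each group had 1 array and no test was run. The count of members at least 2-fold higher, 1 of 26 as reported, was 4 of 37 without a filter. It was 0 of 14 after filtering at the 75 percentile, and 0 of 26 with the background floor or 50 added to every signal. The count of members at least 2-fold lower, 3 of 26 as reported, was 6 of 37 with no filter and 1 under each of the other 3. At the 75 percentile, 63 of all 7815 genes were at least 2-fold lower. Among the genes of the related lists, 2 of 107 were at least 2-fold higher as reported, 19 of 192 without a filter. When the most changed probe set stood for a gene, 4 of 107 were. At least 2-fold lower were 6 of 107 as reported, 36 of 192 with no filter and 2 of 107 with the background floor. With the most changed probe set, 12 of 107 were. Shares of all genes at 2-fold were otherwise not counted under these alternatives, so the counts describe the settings only. Leaving out the filter adds probe sets at background, and the floor and the offset shrink their ratios by construction. The cause of the other differences was not tested. The median log2 fold change of the members kept lay between -0.40 and -0.34 in all settings. Of 241 values of single genes, 233 moved by less than the spread among probe sets of like signal, 8 moved by more and 0 changed direction. That spread was wide for dim members, 0.74 for HPX and 0.73 for TTR. With 50 added to every signal their log2 fold changes went from -1.40 to -0.71 and from -1.34 to -0.65. Both values counted among the 233 although they no longer reached 2-fold.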
